A study of Caenorhabditis elegans with 51 samples.

Results

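A steady gene end is here a gene whose reads just past the gene, relative to the reads on the gene, were much alike in Caenorhabditis elegans larvae with the temperature-sensitive xrn-2(xe31) allele and in wild type. The authors deposited a downstream count and a gene count for each gene. A gene was taken where both deeply resequenced 10 h libraries held at least 1000 gene counts and 50 downstream counts, and where the downstream-to-gene ratio in xrn-2(xe31) was at least 0.8 times that in wild type and no more than the inverse of 0.8 times it. The rule found 660 genes, which is 32.3% of the 2043 genes with the same minimum counts, out of 17429 genes with a downstream window in that table. Of the others with those counts, 1322 lay above the band and 61 below it. The genes were thus selected on the 10 h counts and ratios, so a like ratio at 10 h is no finding. The ratio alone cannot show that such an end does without XRN2, and the genes are called steady ends throughout.

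The study followed whole worms with 3 ways of lowering XRN2 function, each with its own control. xrn-2(xe31) and wild type (N2) larvae were grown at 15 °C for 59 h and then held at 26 °C, with 1 library for each strain at each hour of 0 to 10 h. RNA of 6 h and 10 h was sequenced again at greater depth. Animals of HW2216, which carry xrn-2(D234/236A)::gfp, a catalytic-dead transgene, in the xrn-2(xe31) background, and their own N2 controls were taken at 6 h and 10 h, with 1 library per strain and time. N2 larvae fed bacteria for xrn-2 RNAi or mock RNAi (empty vector) from L1 to mid-L4 at 20 °C gave 1 xrn-2 RNAi and 1 mock polyA library, and 2 xrn-2 RNAi and 1 mock rRNA-depleted libraries. Whether libraries came from separate cultures is not stated in the labels, so a p-value tells only how the libraries here spread around each other, which may be technical.

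XRN2 is a nuclear 5′ to 3′ exoribonuclease. In the torpedo model of transcription termination, cleavage at the poly(A) site leaves an uncapped RNA that XRN2 degrades while it catches up with RNA polymerase II, which then leaves the DNA. Where this does not happen, polymerase runs on and RNA from beyond the gene accumulates, so a rise of downstream reads over gene reads is read as failed termination. Downstream reads can also come from a neighbouring gene, an unannotated longer 3′ end or a shared transcript, and a ratio of 2 counts moves when either count moves.

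Total gene counts were 41238235 to 57832479 per time-course library, 239213652 to 253142688 per resequenced library, 49628394 to 74356542 in the catalytic-dead experiment, 36463650 to 44605077 in the polyA and 21695913 to 23817072 in the rRNA-depleted RNAi libraries. The xrn-2 transcript, the target of the RNAi, had 69.6 CPM (gene counts scaled to library size) in the polyA xrn-2 RNAi library against 151.2 in mock, and 72.7 and 66.3 CPM in the rRNA-depleted xrn-2 RNAi libraries against 79.4 in mock. At 6 to 9 h of the time course xrn-2 averaged 226.6 CPM in xrn-2(xe31) and 112.5 CPM in wild type. In catalytic-dead animals it stood at 500.3 and 419.5 CPM at 6 h and 10 h, against 111.9 and 125.4 CPM in their wild type. How far reads of the transgene add to these counts was not tested. Markers of muscle, intestine, neurons, germline, sperm and epidermis were all detected. Catalytic-dead animals stood apart in stage-dependent genes. Their dpy-7 level, a cuticle collagen of the epidermis, was 149.1 and 46.7 CPM at 6 h and 10 h against 2.17 and 0.839 CPM in wild type, and gsp-3, a sperm phosphatase, had 11.1 and 37.6 CPM against 168.1 and 116.4 CPM.

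The steady ends had many downstream reads in wild type as well. In the resequenced 10 h RNA the median was 17.05 downstream counts per 100 gene counts in xrn-2(xe31) and 15.62 in wild type, while the genes above the band had medians of 4.147 in xrn-2(xe31) and 1.314 in wild type. In wild type 406 steady ends had more than 10 downstream counts per 100 gene counts, 30 had more than 100, and 36 had fewer than 1. The high level was also seen in wild-type libraries that the rule did not use, with medians of 13.79 and 13.61 in the wild type of the catalytic-dead experiment at 6 h and 10 h and 9.655 in the polyA mock library. The genes above the band had 1.11, 1.077 and 1.114 in those libraries. In the rRNA-depleted mock library the distance was smaller, 16.81 for 480 steady ends with a value against 7.289 for 1072 genes above the band.

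A band set as a ratio admits a larger gain where the starting level is high. At its upper end the band allowed the steady ends a median gain of 3.905 downstream counts per 100 gene counts, whereas the genes above the band gained a median of 2.239. For 419 steady ends the band was wide enough to hold a gain of that size, and 173 gained at least that much. The median gain seen among steady ends was 0.685. These are the values that chose the genes and are given as a description.

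At the edges of the band, snt-4, a synaptotagmin, and hot-1 lay just inside the lower end with 0.8044 and 0.8068 times the wild-type ratio, and C03C10.2 and F44G3.7 just outside it with 0.7972 and 0.7973. C15C6.3 and ben-1, a beta-tubulin, lay just inside the upper end with 1.247 and 1.249, and F27C1.3 and T02G5.7 just outside with 1.251 and 1.252.

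The window with the most downstream reads was that of let-19, which encodes a subunit of the Mediator complex that links transcription factors to RNA polymerase II. It had more downstream than gene counts in every library but 1. In resequenced RNA of 10 h its window held 336109 downstream and 10775 gene counts in xrn-2(xe31) and 321970 and 10388 in wild type. Over the 11 hours of the time course let-19 had 2019 to 4608 downstream counts per 100 gene counts in xrn-2(xe31), median 4085, and 2184 to 4826 in wild type, median 4073. The strains overlapped over nearly the whole range. In catalytic-dead animals let-19 had 3558 and 2862 per 100 at 6 h and 10 h, against 4133 and 3246 in their wild type. With rRNA depletion its level was far lower in all 3 libraries, 92.8 and 131.3 per 100 in xrn-2 RNAi and 210.4 in mock.

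gld-4, a cytoplasmic poly(A) polymerase active in the germline, had about as many downstream as gene counts. Its level over the 11 hours was 80.9 to 109.7 per 100 in xrn-2(xe31), median 97, and 99.3 to 135.3 in wild type, median 111.0. The strains overlapped, and the log2 change of the ratio at 6 to 9 h was -0.23 ± 0.19 (SE), with a 95% interval of -0.62 to 0.15. In catalytic-dead animals gld-4 had 93.2 and 76.8 per 100 at 6 h and 10 h against 98.7 and 89.9 in their wild type, while its gene counts there were 2820 and 3709 against 6497 and 6933. lin-41, the TRIM-NHL RNA-binding protein that let-7 represses at the larval-to-adult switch, had 43.9 to 57.2 per 100 over the 11 hours in xrn-2(xe31), median 51.5, and 51.4 to 71.8 in wild type, median 58.9. Over the same hours its downstream count ranged widely, with 398 to 3021 in xrn-2(xe31) and 329 to 3669 in wild type, a wider range than that of its ratio. nos-3, a Nanos-family translational repressor of the germline, had 20.8 to 23.3 per 100 in xrn-2(xe31), median 22, and 20.9 to 25.2 in wild type, median 23.8. cul-3, a cullin of ubiquitin ligases, was steady at a low level, with 2.29 to 3.36 per 100 in xrn-2(xe31), median 2.66, and 2.47 to 3.59 in wild type, median 2.72.

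**Figure D1:**
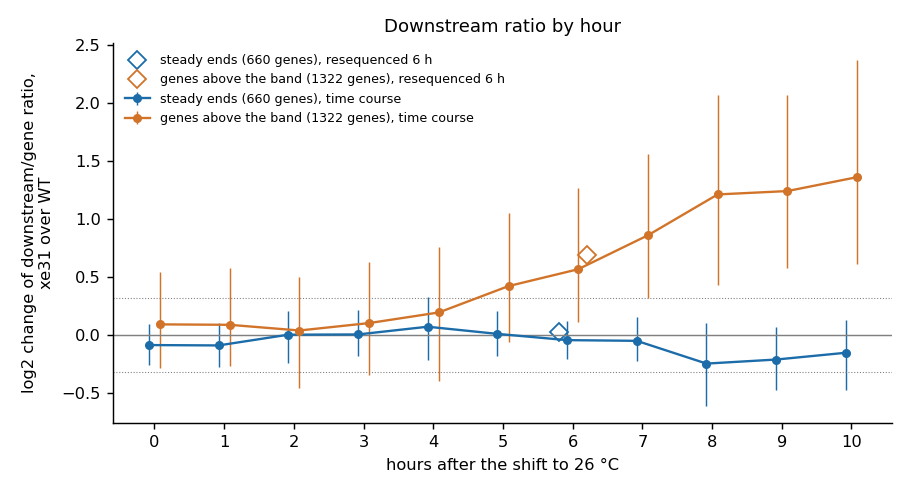
Median log2 change of the downstream-to-gene ratio, xrn-2(xe31) over wild type, at each hour of the time course, with bars from the lower to the upper quartile, and in resequenced 6 h RNA (open diamonds), for steady ends and for genes above the band; dotted lines mark the band. Medians of steady ends stay between -0.25 and 0.07, while genes above the band reach 1.36 at 10 h, the hour whose RNA chose the sets.

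The medians of the steady ends and of the genes above the band lay apart from 5 h onward, and that of the steady ends was lowest at 8 h. The median log2 change of the 660 steady ends was -0.09 at 0 h, 0.01 at 5 h, -0.04 at 6 h, -0.05 at 7 h, -0.25 at 8 h and -0.21 at 9 h. For the genes above the band it was 0.09, 0.42, 0.57, 0.86, 1.21 and 1.24 at those hours. The quasi-likelihood test of edgeR asked, in 1 model of downstream and gene counts with a term for each hour, whether the ratio differed between the strains. P-values were adjusted by Benjamini-Hochberg over 11263 genes whose downstream counts summed to 20 or more and whose gene counts averaged 10 or more, with a threshold of 0.05, and the fit had 7 residual degrees of freedom. At 6 to 9 h the ratio of 19 steady ends rose and that of 61 fell, where 41.7% of all tested genes rose and 1.81% fell. The median log2 change was -0.13 for steady ends and 0.94 for the genes above the band, of which 803 rose.

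A p above the threshold does not show that a ratio stayed the same, and the interval of each change bounds it. For 523 steady ends, or 79.2%, the whole 95% interval at 6 to 9 h lay within a 2-fold change in either direction. The share was 13.9% over all tested genes, whose minimum counts were lower, and intervals widen at low counts. Among genes with the same minimum counts it was 21.3% above the band and 59.0% below it (36 of 61). At 3 to 5 h the intervals of 474 steady ends lay within 2-fold, with 5 that rose and 4 that fell. Of all genes 5.1% rose, 0.453% fell and 11.5% had such an interval. At 0 to 2 h they numbered 463, with 1 that rose and 3 that fell, against 1.05%, 0.0799% and 12% of all genes. The SD of the hourly log2 ratio had a median of 0.37 in xrn-2(xe31) and 0.24 in wild type for steady ends, and 0.90 and 0.66 for the genes above the band.

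The falls at 6 to 9 h rested on the 8 h and 9 h libraries. Without 8 h, 5 steady ends rose and 15 fell, without 9 h 12 rose and 26 fell, and without 7 h 9 rose. By limma on the log2 ratio 7 rose and 19 fell. The 61 ends that fell had a median log2 change of -0.22 at 6 h, -0.38 at 7 h, -1.24 at 8 h and -0.91 at 9 h. Their median was -0.94 in the 10 h time-course libraries. In the deeper sequencing of the same RNA the falls were not seen. There the median of the 61 was -0.02 at 6 h, with 1 of them over 2-fold lower. At 10 h it was 0.08, where the rule itself held the ratios in the band. In the catalytic-dead experiment 52 of the 61 lay below 0 at 6 h and 47 at 10 h, with medians of -0.32 and -0.41. Of all 660 steady ends 304 and 311 lay below 0 there. In the polyA RNAi pair 54 of the 61 lay above 0, with a median of 0.36. So did 459 of all 614 steady ends with at least 20 downstream counts, with a median of 0.31. At 6 to 9 h the downstream count had moved more than the gene count in 55 of the 61. The 10 h ratios of all steady ends differed between the 2 sequencings of 1 RNA by a median of -0.23, with an SD of 0.57, and 339 of the 660 were in the band in the time-course reading. The resequenced ratios are those that chose the genes, so a distance between the readings is a description. This difference was not tested as a source of the falls.

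smg-2, the UPF1 helicase of nonsense-mediated decay, had 440, 387, 140 and 100 downstream counts at 6, 7, 8 and 9 h in xrn-2(xe31), against 546, 609, 652 and 418 in wild type. Its ratio was 2.9 to 14.84 per 100 at those hours in xrn-2(xe31) against 15.75 to 25.56 in wild type. The downstream counts overlapped and the ratios did not, and the ratio fell by 1.49 ± 0.27 on the log2 scale (adjusted p = 2.1e-05, edgeR). In resequenced 10 h RNA, where the rule kept its ratio in the band, smg-2 had 2369 downstream and 18098 gene counts in xrn-2(xe31), against 2402 and 19159 in wild type. In catalytic-dead animals its log2 change was -0.97 ± 0.53 (adjusted p = 0.185, edgeR), with 7.67 and 3.16 per 100 at 6 h and 10 h against 12.7 and 7.37 in wild type. Among the other falls were mys-4, a MYST-family histone acetyltransferase, at -1.34, and arid-1, an ARID-domain protein, at -1.16. The call of mys-4 was lost by limma (adjusted p = 0.0602) and by edgeR without 8 h (adjusted p = 0.226). Y22D7AL.9 fell by 1.23 while its own transcript rose by 2.22 on the log2 scale, so that its downstream count was in fact higher in xrn-2(xe31), at 113 to 154, than in wild type, at 25 to 102.

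Of the 19 ends that rose, 9 had at least 200 downstream counts in both resequenced 10 h libraries. H05C05.2 rose most, with 12, 6, 7 and 8 downstream counts at 6 to 9 h in xrn-2(xe31) against 2, 2, 0 and 2 in wild type. The strains did not overlap, and the log2 change was 2.01 ± 0.59 (adjusted p = 0.00507, edgeR). With upstream in place of gene counts as its reference the log2 change was 0.09 (adjusted p = 0.914), and by limma with a pseudocount of 5 it was 0.66. H05C05.2 rose in catalytic-dead animals too, with 44 and 25 downstream counts against 9 and 9 in their wild type and a log2 change of 1.95 ± 0.61 (adjusted p = 0.0422). msa-1 rose by 1.19 in xrn-2(xe31) (adjusted p = 0.0259, edgeR) and by 2.21 in catalytic-dead animals. Its call in xrn-2(xe31) was lost by limma (adjusted p = 0.116) and by edgeR without 7 h (0.152) or without 8 h (0.168). In these animals msa-1 had 288 and 312 downstream counts against 30 and 21 in wild type. In 18 of the 19 the downstream count had moved more than the gene count at 6 to 9 h. In catalytic-dead animals 3 of the 19 also rose, where 6.99% of all steady ends and 46.3% of all genes tested did.

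**Figure D2:**
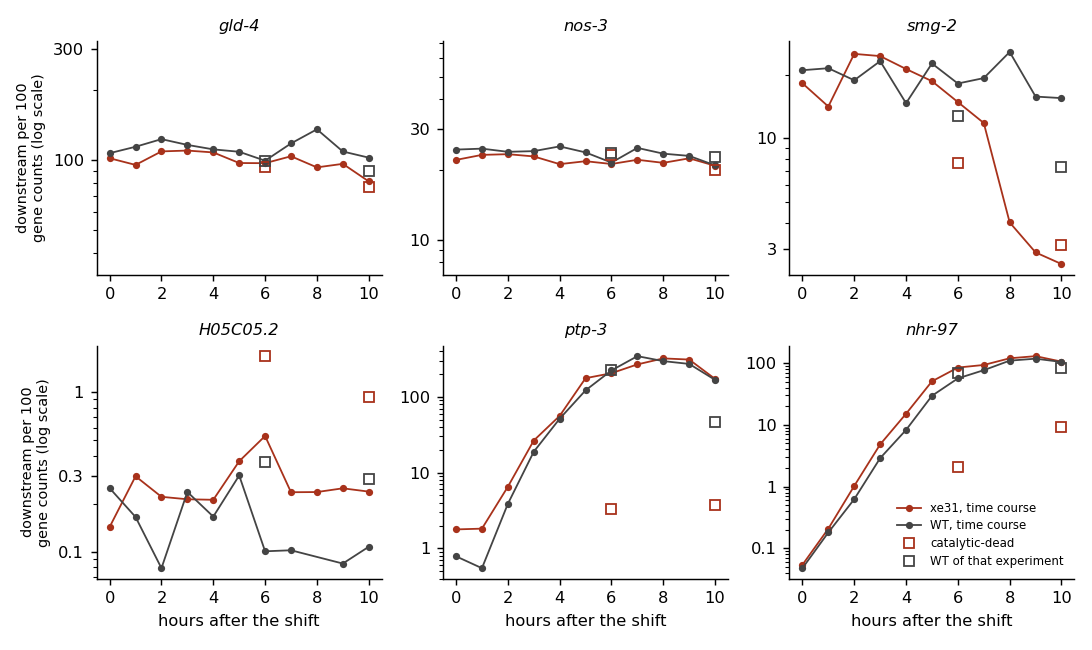
Downstream counts per 100 gene counts in each time-course and catalytic-dead library for 6 steady ends, on log axes that differ between panels; lines are the time course and squares the catalytic-dead experiment, mutants in red and wild type in grey. gld-4 and nos-3 are level, smg-2 is lower in xrn-2(xe31) at 8 to 10 h, H05C05.2 is higher in the mutants, and the ptp-3 and nhr-97 windows are low in catalytic-dead animals and in the earliest hours. The wild-type 8 h library of H05C05.2 had 0 downstream counts and has no point.

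In catalytic-dead animals, a separate experiment that the rule did not use, the steady ends as a set again stayed near their wild type. Their median log2 change was 0.05, against 2.40 over all genes tested and 2.12 for the genes above the band. The ratio rose at 46 and fell at 6 of the 658 steady ends tested, where 46.3% of 10972 genes rose and 1.89% fell, and 692 of 1319 genes above the band rose. With 4 libraries and 1 residual degree of freedom the intervals were wide, and only 2 steady ends had a 95% interval within 2-fold, against 0.264% of all genes. In a model over the time course and the catalytic-dead libraries together 124 rose, 28 fell and 288 had an interval within 2-fold. With upstream in place of gene counts as the reference, 185 steady ends could be tested, of which 2 rose and 65 fell, with a median of -1.44. Shares over all genes were not counted for the joint model or for the upstream reference. The counts under these settings therefore have no background to be read against. In the single pairs, 349 steady ends were in the band at 6 h and 257 at 10 h. Of all genes with 20 downstream counts in these pairs, 12.75% and 9.879% were in the band. At 6 h and 10 h 107 and 128 steady ends were over 2-fold higher, and 29 and 43 over 2-fold lower. Among all those genes 63.25% and 65.7% were over 2-fold higher, and 8.14% and 9.077% lower.

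The share of ratios that rose was lower at a higher wild-type level, among steady ends and other genes alike. The same wild-type libraries gave the level and the reference of the change. Noise in them alone therefore makes low levels go with rises, and its part in the trend was not tested. Where the wild type of the catalytic-dead experiment had fewer than 1 downstream count per 100 gene counts, 15 of 39 steady ends rose (38.5%), against 429 of 612 genes above the band (70.1%) and 80.02% of all genes. From 1 to 5 per 100, 16 of 136 steady ends rose (11.8%), against 209 of 430 (48.6%). From 5 to 20, 9 of 231 rose (3.9%), against 46 of 213 (21.6%), and at 20 or more 6 of 252 rose (2.38%), against 8 of 64 (12.5%). Steady ends thus rose in a smaller share than genes above the band in each of the 4 ranges of level. Both sets were chosen at 10 h in xrn-2(xe31), and the difference between them was not tested.

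**Figure D3:**
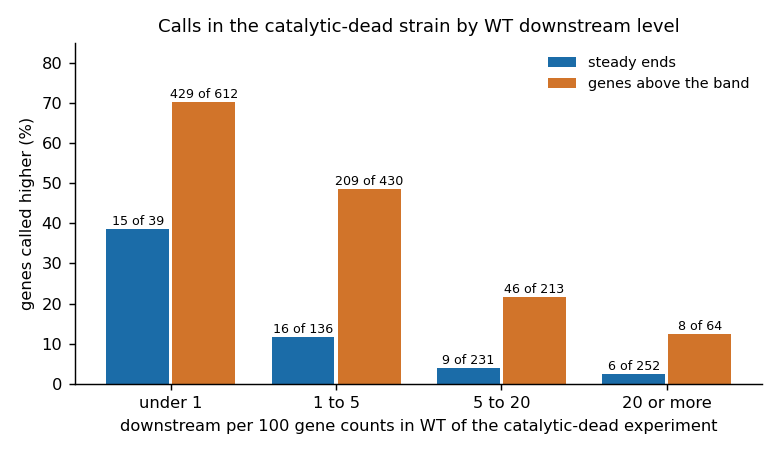
Share of genes whose downstream-to-gene ratio rose in catalytic-dead animals, by downstream counts per 100 gene counts in their wild type, for steady ends and genes above the band, with the number that rose and the number tested over each bar. In each set the share is lower at higher levels, and it is 38.5% to 2.38% for steady ends against 70.1% to 12.5% for genes above the band. Level and change share the same wild-type libraries, so the trend is in part built in.

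For the 46 steady ends that rose in catalytic-dead animals it was mostly the gene count that moved. Their gene CPM fell by a median of 2.66 on the log2 scale and their downstream CPM rose by a median of 0.55. The gene count moved more than the downstream count in 33 of the 46 and the downstream count in 13. Among the 692 genes above the band that rose the order was reversed, with a downstream change of 2.58, a gene change of -0.60 and a larger downstream change in 561. Of the 46, 31 (67.4%) had over 10-fold more gene counts in wild type at 10 h than at 0 h, against 51 of the other 614 steady ends (8.31%) and 158 of the 1322 genes above the band (11.95%). All these genes had to reach the minimum of gene counts at 10 h, and none was set for 0 h. Each share is thus in part fixed by the choice of genes. The minimum was the same for all these genes, and the difference between the shares was not tested.

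Lists of stage-dependent genes differed between catalytic-dead animals and wild type. The sperm list summed to 481.5 and 1020 CPM at 6 h and 10 h in catalytic-dead animals against 4230 and 3826 CPM in wild type, and 131 of its 145 genes were lower, with a median log2 change of -1.55. The germline and oocyte list summed to 8982 and 10360 CPM against 21260 and 36610 CPM, with 97 of 108 lower and a median of -1.15, while glh-1, a germline helicase, had 707.0 and 724.3 CPM against 857.3 and 593.9 CPM. Of the cuticle collagens 62 of 176 were lower and the median was 1.33, although their sum was 11370 and 9083 CPM against 44360 and 45200 CPM. In the time course the sperm list was alike in both strains, at 263.5 CPM in xrn-2(xe31) and 224.0 in wild type at 0 h, and at 4456 and 3978 CPM at 10 h. In bulk RNA of whole animals fewer cells of a type and less RNA per cell cannot be told apart. The part of these shifts in the rises was not tested.

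**Figure D4:**
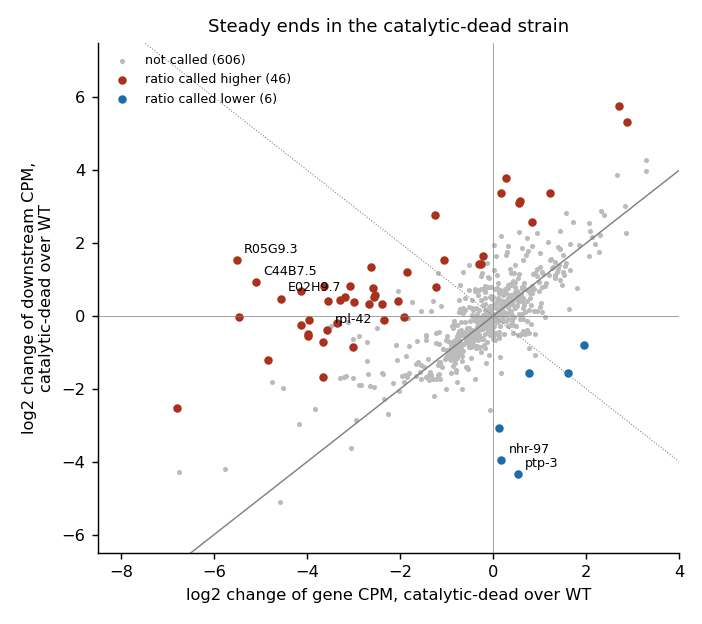
Log2 change of gene CPM and of downstream CPM in catalytic-dead animals over wild type for the steady ends tested, each point 1 gene, with the 46 whose ratio rose in red, the 6 whose ratio fell in blue and the others in grey. On the solid line both counts changed alike, and on the dotted line by the same amount in opposite directions. Most of the 46 lie far to the left, with lower gene CPM, and the 6 lie low, with lower downstream CPM.

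C44B7.5 and R05G9.3 had the largest rises of this kind. C44B7.5 had 33 and 36 downstream counts at 6 h and 10 h in catalytic-dead animals against 35 and 7 in wild type, and 44 and 1039 gene counts against 6265 and 7272. The downstream counts overlapped and the gene counts did not, and the log2 change of the ratio was 6.21 ± 0.74 (adjusted p = 0.0043, edgeR). R05G9.3 had 49 and 34 downstream counts against 28 and 5, with 2 and 33 gene counts against 154 and 1124, and its ratio rose by 7.48 ± 0.82 (adjusted p = 0.0043).

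ssp-31, of a sperm-specific protein family, had 299 and 353 downstream counts in catalytic-dead animals against 403 and 224 in wild type, and 10 and 138 gene counts against 1717 and 1442. Its ratio rose by 5.39 ± 0.91 (adjusted p = 0.0071). rpl-42 was the only steady end in the ribosomal protein list, which is by symbol. It had 132 and 103 downstream counts against 159 and 122, and 29 and 91 gene counts against 798 and 398. Its ratio rose by 3.17 ± 0.88 (adjusted p = 0.029, edgeR). For all 4 of these genes the gene counts changed more than the downstream counts.

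The 6 steady ends that fell in catalytic-dead animals had a median downstream CPM change of -2.32 and a median gene CPM change of 0.64. The downstream count moved more than the gene count in 4 of the 6 and the gene count in 2, spp-15 and Y37D8A.16. All 6 lay below 0 in the polyA RNAi pair as well, with a median of -1.07. ptp-3, a receptor tyrosine phosphatase of the LAR family, fell furthest. Its window held 146 and 124 downstream counts at 6 h and 10 h in catalytic-dead animals against 5612 and 1093 in wild type, at 4427 and 3319 gene counts against 2503 and 2322. The groups did not overlap, and the ratio fell by 4.87 ± 0.78 (adjusted p = 0.00628, edgeR). With polyA RNAi ptp-3 had 79 downstream counts in xrn-2 RNAi against 3606 in mock, and with rRNA depletion 201 and 122 in xrn-2 RNAi against 1540 in mock. At 6 to 9 h of the time course the log2 change was -0.04 (adjusted p = 0.883, edgeR).

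The ptp-3 window moved with a neighbour. ptp-3 is flanked in the annotation by col-81, a cuticle collagen gene. col-81 had 229 and 371 gene counts in catalytic-dead animals against 248813 and 46813 in wild type, and 135 in polyA xrn-2 RNAi against 125875 in mock. In the time course col-81 had 79 counts at 0 h and 93343 at 10 h in xrn-2(xe31), and 50 and 120945 in wild type, while the ptp-3 window held 63 and 3204 downstream counts at those hours in xrn-2(xe31) and 26 and 3099 in wild type. Whether the window's reads belong to col-81 was not tested. nhr-97, a nuclear hormone receptor gene, had 163 and 640 downstream counts in catalytic-dead animals against 5296 and 3940 in wild type at 7868 and 6970 gene counts against 7590 and 4694. Its ratio fell by 4.13 ± 0.69 (adjusted p = 0.00702), and at 6 to 9 h of the time course the log2 change was 0.28 (adjusted p = 0.263).

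Flanking genes were counted as well, taking only protein-coding genes in order of start, without regard to strand. Of 628 steady ends with flanking genes in the annotation, 528 (84.1%) had a flank with at least as many counts as the downstream window. Of 1278 genes above the band 1224 did (95.8%). The window counts are those of wild type at 10 h that chose the sets, and relative to gene counts they were higher in steady ends. A flank had more counts than the gene itself in 345 steady ends (54.9%) and 739 genes above the band (57.8%). For let-19, the only flank with a matched count, sgn-1, had 633, 520 and 421 counts at 0, 6 and 10 h in xrn-2(xe31). In wild type it had 686, 546 and 351. These lie far below the 49499 to 84063 and 50096 to 84378 downstream counts of let-19 over the 11 hours. Noncoding genes and the gene on its other side were not examined, and the source of the let-19 downstream reads was not tested. In 85 of the 628 a flanking gene was itself a steady end. Over the 11 wild-type hours the highest downstream-to-gene ratio of a steady end was a median of 1.728 times its lowest, and under 2 times in 376 steady ends (57.0%) against 129 genes above the band (9.76%). In 93 steady ends (14.1%), ptp-3 and nhr-97 among them, it varied over 10-fold.

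**Figure D5:**
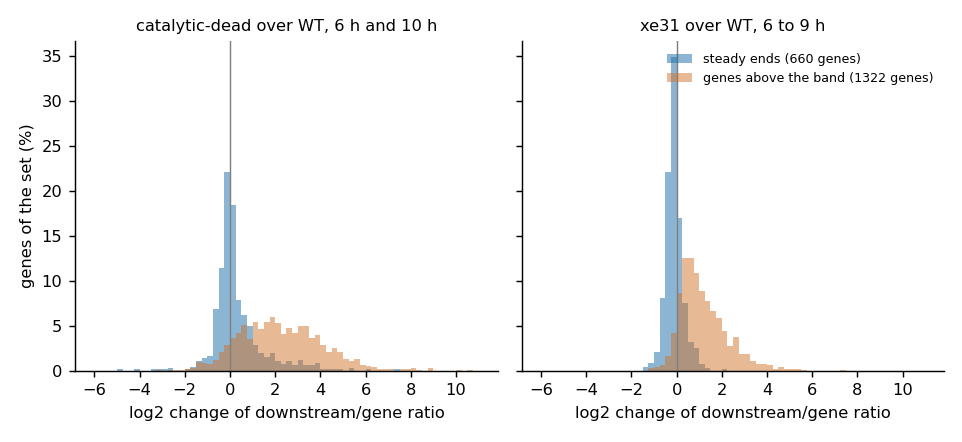
Share of the steady ends and of the genes above the band (percent of each set) by log2 change of the downstream-to-gene ratio, in catalytic-dead animals over their wild type (left) and in xrn-2(xe31) over wild type at 6 to 9 h (right). Steady ends have medians of 0.05 in catalytic-dead animals and -0.13 at 6 to 9 h, and genes above the band 2.12 and 0.94.

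RNAi against xrn-2 was measured in polyA and in rRNA-depleted RNA. In the polyA pair, with 1 library per group and no test, 71 of 614 steady ends with at least 20 downstream counts were over 2-fold higher in xrn-2 RNAi and 38 over 2-fold lower, where 52.3% of 5937 genes were higher and 10.3% lower. The median log2 change was 0.31, against 1.18 for the genes above the band, and 652 of 1178 of these were over 2-fold higher. For 340 steady ends, or 55.4%, the exact 95% binomial interval lay within 2-fold, against 11.1% of all genes. These intervals cover counting error only. With at least 50 downstream counts in both libraries, 17 of 375 steady ends were over 2-fold higher and 7 lower. The 46 ends that rose in catalytic-dead animals were over 2-fold higher here in 17 of the 39 with enough counts.

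With rRNA depletion, which does not select for poly(A) tails, no steady end of 463 passed the test in either direction, and 0% of the 7038 genes tested did. By edgeR 20 steady ends had a higher and 6 a lower ratio at an unadjusted p under 0.05, the smallest adjusted p was 0.108, and limma called 0. The 95% interval lay within 2-fold in 0 steady ends and in 0.128% of all genes, so that the data could not bound these changes. The median log2 change of steady ends was 0.01, against 0.29 for the genes above the band. nos-3 had 5.90 and 6.58 downstream counts per 100 gene counts in xrn-2 RNAi and 5.56 in mock, and lin-41 had 27.9 and 30.4 in xrn-2 RNAi and 26.8 in mock.

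In the resequenced 6 h pair, 14 of the 660 steady ends were over 2-fold higher in xrn-2(xe31) and 3 lower, where 37.8% of all genes were higher and 2.6% lower. The counting interval lay within 2-fold in 611 (92.6%), against 29.6% of all genes. Among genes with the same minimum counts it did so for 46.1% above the band and 75.4% below it. At 6 h 543 of the 660 were inside the band that defined them at 10 h, against 28.62% of all genes with 20 downstream counts.

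Over 14 pairs of libraries with a value for all genes (the hours 0 to 9 h, the resequenced 6 h pair, 2 catalytic-dead pairs and 1 polyA RNAi pair), 323 of the 660 steady ends (48.9%) were within 2-fold in every pair. Among the genes above the band 70 of 1322 (5.3%) were, and below the band 8 of 61. Both 10 h pairs of xrn-2(xe31), whose RNA chose the sets, are left out, but the other hours are of the same strains and the difference between the sets was not tested. Within 2-fold in all 14 were gld-4, nos-3, lin-41, cul-3, rsks-1, the S6 kinase, top-1, the type I topoisomerase, elo-3, a fatty acid elongase, and fat-1, the desaturase of omega-3 fatty acids.

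The test of the difference between the mutants called 76 steady ends with a larger change in catalytic-dead animals than in xrn-2(xe31) at 6 to 9 h, and 15 with a smaller one, each against its own wild type. Of 12534 genes tested, 15.1% had a larger and 2.47% a smaller change. The median difference was 0.23 on the log2 scale, with 8 residual degrees of freedom. The differences were largest for R05G9.3 at 8.15 ± 0.68 (adjusted p = 3.55e-10, edgeR) and C44B7.5 at 6.99 ± 0.60 (adjusted p = 6.54e-10), and lowest for ptp-3 at -4.84 ± 0.55 (adjusted p = 1.26e-07) and nhr-97 at -4.40 ± 0.53 (adjusted p = 3.26e-07).

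The window before the gene, which the rule did not use, moved in more of these genes. Of 349 steady ends with enough reads there, the upstream-to-gene ratio rose in 95 and fell in 3 at 6 to 9 h in xrn-2(xe31), where 33.4% of 8465 genes rose and 1.57% fell. Their median log2 change was 0.58, and 303 of 796 genes above the band rose. The largest rise was that of lon-1, a regulator of body length, at 6.28 ± 0.65 (adjusted p = 1.97e-20, edgeR). The upstream ratio of lin-41 rose by 5.65 ± 1.08 (adjusted p = 1.49e-06), with a downstream change of -0.28 (adjusted p = 0.255). sut-2, the worm counterpart of a nuclear poly(A)-binding zinc finger protein, rose by 4.68 ± 0.82 upstream (adjusted p = 1.43e-07) and changed by -0.06 downstream (adjusted p = 0.831).

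The transcripts of steady ends changed in both directions, as did those of all genes. At 6 to 9 h 103 steady-end genes (15.6%) were higher in xrn-2(xe31) and 74 (11.2%) lower. Of all 17468 genes tested, 14.1% were higher and 16% lower. Of the genes above the band 112 were higher and 402 lower. Without 7 h, 8 h or 9 h in turn, 45, 35 and 48 steady-end genes were lower. pmk-1, the p38 kinase of innate immunity, averaged 34.8 ± 1.22 CPM in xrn-2(xe31) and 16.7 ± 3.03 CPM in wild type (SD, n = 4 hours each) and rose by 1.07 ± 0.09 on the log2 scale (adjusted p = 2.67e-05, edgeR), while its downstream ratio was 20.55 to 23.03 per 100 in xrn-2(xe31) against 24.8 to 27.9 in wild type, a log2 change of -0.25 with a 95% interval of -0.65 to 0.14. F53A2.9 averaged 14.6 ± 4.85 CPM against 3.74 ± 0.894 CPM and rose by 1.94 ± 0.10 (adjusted p = 1.62e-06). nos-3 averaged 105.2 ± 8.86 CPM against 144.5 ± 7.61 CPM and fell by 0.46 ± 0.06 (adjusted p = 0.000286) with a log2 change of the downstream ratio of -0.09. T22C1.5 and R148.4 each fell by 0.68. The log2 change of the downstream ratio was -0.25 for F53A2.9, 0.04 for T22C1.5 and -0.13 for R148.4, and none of these 3 passed the test (adjusted p = 0.376, 0.897 and 0.629, edgeR).

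In catalytic-dead animals 1 steady-end gene rose and 1 fell, E01G4.6 at 3.33 ± 0.34 (adjusted p = 0.0454, edgeR) and msrp-6 at -6.85 ± 0.76 (adjusted p = 0.0462), where 0.697% of 17212 genes rose and 0.465% fell. With 1 residual degree of freedom this count depended on the tool, and DESeq2 called 32 higher and 85 lower. The share of all genes that DESeq2 called was not counted, and the shares above are those of edgeR.

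By function, the share of steady ends differed from list to list. The lists are by symbol, 93 of the 660 steady ends fall in any of the 27, and shares are of the list's genes with the same minimum counts, against 32.3% over all genes. Of kinases and phosphatases 13 of 24 were steady ends (54.2%), among them gsk-3, the glycogen synthase kinase, and gck-3, a germinal centre kinase. Of transcription factors and chromatin genes 25 of 62 were (40.3%), of ubiquitin enzymes 8 of 20 and of neuronal genes 6 of 12, with unc-18 and unc-11 of synaptic vesicle release and recycling. Of ribosomal protein genes 1 of 16 was (6.25%), of metabolic enzymes 2 of 20 (10.0%), of germline and oocyte genes 4 of 29 (13.8%), and of respiratory chain and splicing genes 0 of 9 and 0 of 8. No test was made of these shares. Lists also differ in level, length and neighbours, whose part was not tested.

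Of the 10 genes for 3′-end processing and nuclear decay with enough counts, 4 were steady ends (40%, near the 32.3% over all genes), namely pcf-11, the cleavage factor that dismantles the elongation complex, cpsf-1 of the cleavage and polyadenylation factor, exos-4.2 of the exosome, and sut-2. pcf-11 had 0.588 to 0.953 downstream counts per 100 gene counts at 6 to 9 h in xrn-2(xe31), and 0.743 to 1.203 in wild type. The strains overlapped, and the log2 change was -0.35 with a 95% interval of -0.88 to 0.18. sut-2 had 11.2 to 13.4 per 100 at those hours in xrn-2(xe31) and 12.01 to 13.83 in wild type.

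Of the 4 genes in the germline and oocyte list, gld-4, nos-3 and lin-41 were within 2-fold in the 14 pairs above. The fourth, chs-2, which was placed there by its symbol and encodes a chitin synthase of the pharynx, rose in catalytic-dead animals. So did 1 of 3 sperm genes, ssp-31, 1 of 13 kinases and phosphatases, ptp-5.3, and 1 of 25 transcription factor and chromatin genes. chs-2, cpsf-1 and exos-4.2 were named after their values were seen. ptp-5.3 had 10 and 32 downstream counts in catalytic-dead animals against 12 and 8 in wild type, at 32 and 179 gene counts against 1475 and 1007. The median log2 change in catalytic-dead animals was -0.14 over the 13 kinases and phosphatases and 2.99 over the 11 others of that list with enough counts, and 0.14 over the 25 transcription factor and chromatin genes and 2.12 over the 37 others.

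By chromosome the share of steady ends was 29.5% on I, 29.3% on II, 31.6% on III, 31.7% on IV, 33.8% on V and 42.7% on X, which is 67 of 157 genes on X. 30 steady ends had no chromosome in the annotation by symbol.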

How the data were processed

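Whole-animal RNA was measured as gene counts and as downstream and upstream counts per gene, which the authors deposited as raw counts in 1 table pair per experiment. Reads were placed on ce10, per the submitters' processing notes. Neither labels nor headers name the aligner, the counter, the use of strand, or the place and length of the windows, and readthrough cannot be told from reads of an adjacent or overlapping gene. The 12 columns that belong to another series, and the 16 ChIP samples, were not used.

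Ratios of downstream to gene counts were tested with edgeR 4.0.16 in R 4.3.3, both counts of a library in 1 model, with TMM scaling. limma 3.58.1 and DESeq2 1.42.0 were alternatives, and the fits were tested on simulated data. Log2 changes of single pairs used a pseudocount of 1. Named genes are those with the most downstream reads, those at the band's ends, up to 5 called per direction and comparison, and up to 2 per list. Members and lists were chosen with earlier results of these data known. Symbols matched 95.8% of gene IDs. Coordinates and sequences are not given, since no genome of that build was used.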

Additional observations from a re-analysis of the deposited data

Results flagged for a closer look

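The catalytic-dead strain and xrn-2(xe31) at 6 to 9 h were compared by the test of the difference itself. It called 76 steady ends (11.5%) with a larger change in catalytic-dead animals and 15 (2.27%) with a smaller one. Of all 12534 genes tested 15.1% had a larger and 2.47% a smaller change, so neither share was above that of all genes. The largest such differences on the log2 scale were 8.15 for R05G9.3, 6.99 for C44B7.5, 6.43 for E02H9.7, 5.55 for ssp-31 and 4.95 for ptp-5.3. The lowest were -4.84 for ptp-3, -4.40 for nhr-97, -3.55 for glt-3, a glutamate transporter, -3.18 for cav-2, a caveolin, and -3.07 for spp-15, a saposin-like protein. E02H9.7 had 53 and 159 downstream counts and 6 and 35 gene counts in catalytic-dead animals, against 107 and 33 downstream counts and 222 and 521 gene counts in wild type. glt-3 had 3 and 9 downstream counts in catalytic-dead animals against 106 and 21 in wild type. spp-15 had 30 and 307 downstream counts in catalytic-dead animals against 320 and 211 in wild type, and 2754 and 3430 gene counts against 942 and 878.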

How the results depend on the processing

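At 6 to 9 h, with 19 rises, 61 falls, a median of -0.13 and 523 intervals within 2-fold, leaving out 1 hour gave 5 to 25 rises and 15 to 86 falls, with 86 falls without 6 h. limma gave 7 and 19. Requiring 200 downstream counts gave 9 rises, and requiring the band at 6 h as well gave 6. With upstream counts as the reference, 90 steady ends could be tested, with 4 rises, 24 falls, a median of -0.34 and 38 intervals within 2-fold. At 3 to 5 h that reference gave 1 rise, 1 fall, a median of -0.0334 and 31 intervals, limma 1 and 1, no filter on low counts 1 fall, and leaving out 1 hour 1 to 4 rises and 1 to 3 falls. At 0 to 2 h it gave 0 rises, 0 falls and 35 intervals, no filter 0 and 1, limma 0 and 1, and leaving out 1 hour 0 rises and 1 fall each time.

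In catalytic-dead animals the upstream reference gave 2 rises, 65 falls, a median of -1.44 and 0 intervals within 2-fold. limma gave 3 falls and 0 intervals, and the model over both experiments 124 rises, 28 falls and 288 intervals. Under that reference E02H9.7 turned to -5.48, and lon-1 at 3 to 5 h to -2.38. With a band of 0.9 the median was -0.0015 and 2 intervals lay within 2-fold; the 6 h and 10 h pairs alone gave medians of 0.0408 and 0.0484. Gene-expression calls there were 6 and 15 without a filter, 6 and 17 with DESeq2's size factors and 32 and 85 with DESeq2. At 6 to 9 h 35 to 77 gene-expression falls were called when 1 hour was left out. The fall of upstream windows relative to library size was called in 1.

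With rRNA depletion the median was -0.059 under the upstream reference, and 0.0304 and 0.0394 with 1 xrn-2 RNAi library left out. With at least 50 counts in both polyA libraries 17 were over 2-fold higher and 7 lower. The limma test of the difference between the mutants was added after the data were seen and gave 58 with a larger and 15 with a smaller change. Of all values of counts and medians under an alternative, 130 stayed within 1.5 times or 1 SD and 64 moved by more; of 292 for named genes 229 kept direction and side of the threshold, 61 lost the call and 2 changed sign. The causes were not tested, and shares over all genes were not counted under the alternatives.

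Strains were matched by hour in the time-course and catalytic-dead models, which hold a term for each hour. Beyond this match, no paired analysis was possible because the time-course and catalytic-dead libraries carry no replicate numbers, the polyA groups share a single number and the rRNA-depleted mock library has none. Depth limits windows with few reads, above all in the rRNA-depleted libraries. The rRNA-depleted and catalytic-dead fits had 1 residual degree of freedom each, which makes their intervals wide.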
